A study of Mus musculus with 12 samples.

Results

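Hair germ (HG) cells that the labels call activated were compared with the HG cells of 3 arrays that are called quiescent or aberrantly quiescent, which together are 4 of the 12 Affymetrix arrays of the study. The arrays were chosen by the cell state in their labels and not by any measured value. The activated array held HG cells of set 2 from TßRII-Het mice, whose genotype names TGF-beta receptor II, the product of Tgfbr2. The quiescent arrays held HG cells of set 1 from TßRII-Het mice, HG cells of set 1 from TßRII-cKO (conditional knockout) mice, and HG cells of set 2 from TßRII-cKO mice, which are called aberrantly quiescent. All mice were untreated females of a mixed C57BL/6 and CD1 strain aged 72 to 74 days, and cells were sorted from back skin by a Rosa26-YFP reporter, P-cadherin and CD34. The promoter that drives the Cre recombinase, and whether 1 array is 1 mouse or a pool, are stated in none of the sources used here. Bulge cells of the same 4 conditions and total keratinocytes of both genotypes and sets served as the other arrays of the series. The activated side holds 1 array, so genotype, set and the activated state cannot be told apart in it, although a cKO array of set 2 and a Het array of set 1 both stand on the quiescent side.

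The hair germ is the small cluster of epithelial cells at the base of the resting follicle, between the bulge stem cells and the dermal papilla. It is the first compartment to divide when a new hair cycle begins, and its progeny form the matrix, which makes the inner root sheath and the hair shaft. Wnt signals acting through LEF1 and beta-catenin, and Sonic hedgehog made by the germ itself, promote growth, whereas BMP signals hold the follicle at rest and TGF-beta signals from the papilla counter them.

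Values are MAS5 signals, in which the brightness of the probes of a gene is summarised per array and the arrays are scaled to 1 mean, and they are given as log2 of that signal. Signals under the pooled 25th percentile of 20.7 were raised to it (4.37 in log2, called the floor below), which makes differences from the floor lower bounds. The median signal of a gene was 63.9 on the activated array and 95.6 to 98.8 on the 3 quiescent arrays, and 22.1% of genes lay at the floor on the activated array and 16.9% to 17.6% on the quiescent ones. Tgfbr2 had 10.35 in activated HG, against 11.48 in Het quiescent, 12.02 in cKO quiescent and 11.31 in cKO aberrantly quiescent HG. Where its probes lie relative to the deleted part is unknown here, so this gene does not check the genotype labels. Of the sort markers, the P-cadherin gene Cdh3 had 10.61 in activated HG, against 9.42, 9.74 and 9.22 on the 3 quiescent arrays (limma difference 1.15, adjusted p = 0.0364). The bulge marker Cd34 had 7.65 in activated HG, against 8.21 to 8.69 in quiescent HG (adjusted p = 0.0387).

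The 3 genes given as marks of the activated germ were all highest on the activated array. Shh, the Hedgehog ligand of the growing follicle, had 12.49 in activated HG, against 9.84 in Het quiescent, 9.75 in cKO quiescent and 9.97 in cKO aberrantly quiescent HG. Lef1, the DNA-binding partner of beta-catenin, had 12.14 in activated HG, against 9.89, 9.58 and 9.80 in the same quiescent arrays. Mki67, a gene of dividing cells, had 13.06 in activated HG, against 12.18, 11.73 and 11.82. The activated array was thus 5.73-fold above the highest quiescent array for Shh and 4.77-fold for Lef1, but 1.84-fold for Mki67, which was high on all 4 arrays. In the limma fit described next, Lef1 rose by 2.39 (SE 0.28, adjusted p = 0.0016) and Mki67 by 1.15 (adjusted p = 0.0317), while the difference of 2.64 for Shh had a larger error (SE 0.84, adjusted p = 0.0611). In bulk samples such as these, fewer cells of a type and less RNA per cell cannot be told apart.

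A gene was counted as above or below when the activated array lay at least 2-fold beyond the highest or the lowest of the 3 quiescent arrays. Of 11588 genes whose signal passed the pooled median of 84.7 on the activated array or on the mean of the quiescent ones, 583 were above (5.03%) and 1257 below (10.8%), and the other 9748 lay within 2-fold of the quiescent range. This count has no test, because the activated side is 1 array. The median difference over all genes tested was -0.10, and the median SD among the 3 quiescent arrays was 0.23. At a 4-fold distance 120 genes were above (1.04%) and 245 below (2.11%). Just outside the 2-fold line were Srl at 1.0002 above and Scml2 at 1.0019 below (log2), and just inside it Ctnnbip1 at 0.9998 and Glud1 at 0.9999. The excess of genes below moved with the scaling. With quantile normalization, under which all arrays have 1 distribution, 772 genes were above and 776 below, a share above of 49.9% in place of 31.7%, and the median difference over all genes was 0.06.

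The activated array stood apart from each of the quiescent arrays by more genes than these from each other. It differed at least 2-fold from Het quiescent HG in 3028 genes (1050 higher, 1978 lower), from cKO quiescent HG in 3255 (1170 higher, 2085 lower) and from cKO aberrantly quiescent HG in 2767 (1000 higher, 1767 lower). The 3 pairs of quiescent arrays differed in 527, 569 and 733 genes. The comparison with the cKO aberrantly quiescent array is the one within set 2. That array was the nearest of the 3 for 289 of the 583 genes above and for 627 of the 1257 below, against 146 and 326 for Het quiescent and 148 and 304 for cKO quiescent HG.

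A fit of all 8 HG and bulge arrays with limma took its error from the quiescent arrays of both fractions and assumed that the lone activated arrays vary in the same way. Its HG contrast uses the same HG arrays as the range rule, so a gene that meets both has no separate support. Of 13698 genes 838 rose (6.12%) and 1335 fell (9.75%) in activated HG at an adjusted p under 0.05. Of the 583 genes above the quiescent range 439 rose, and of the 1257 below it 957 fell. The count of 2173 (15.9%) was 1214 without the Het quiescent array, 1514 without the cKO quiescent and 1930 without the cKO aberrantly quiescent array. The share that rose was 38.6%, and with each array centred on its own median it was 51.7% (1254 rose and 1174 fell). Each quiescent array of a fraction has its own combination of genotype and set, so the error behind these p-values mixes genotype, set and array-to-array spread. The labels do not tie arrays to mice, so part of that spread may be technical.

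Of the genes furthest above the quiescent range, Aldh1a3, which encodes an enzyme of retinoic acid synthesis, came first. Aldh1a3 had 10.77 in activated HG, against 5.54 in Het quiescent HG and the floor in both cKO arrays. It was 37.5-fold above the nearest quiescent array, and all 3 of its probe sets were above (limma adjusted p = 0.0045). Kif26a, of the kinesin family, had 9.32 in activated HG, against 4.37 to 4.66 in quiescent HG. The kinesin gene was at or near the floor on every quiescent array, so the size of its rise is not well measured (adjusted p = 0.0069). Padi3 and Padi4, enzymes that convert arginine residues of proteins to citrulline, had 9.74 and 8.59 in activated HG, against at most 5.45 and 5.10 in quiescent HG. Dlx3, a homeobox gene required for hair shaft differentiation, had 11.85 in activated HG, against 6.36, 5.36 and 7.72, and Msx1, another homeobox gene, had 10.997 against 7.01, 6.16 and 7.22. Both homeobox genes were highest in activated HG, by 17.5-fold for Dlx3 and 13.7-fold for Msx1. The keratin genes Krt35, Krt25 and Krt28, described below, and Dlx1 (12.7-fold), Atp13a4 (11.5-fold) and Ly6g6d (at least 15.0-fold, with all 3 quiescent arrays at the floor) complete the 12 furthest above.

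The genes furthest below the quiescent range were of mixed function. Gm13306 had 8.24 in activated HG, against 12.51, 12.52 and 12.59 in quiescent HG. The 3 quiescent arrays lay close together, and activated HG was 19.3-fold below the lowest of them (adjusted p = 0.0020). Clca3a1, of the calcium-activated chloride channel regulator family, had 8.83 in activated HG, against 12.28, 12.74 and 12.07, and Trim7, a ubiquitin ligase gene, had 7.25 against 11.22, 11.27 and 10.88. Both were bright genes of quiescent HG and lay 9.43-fold and 12.3-fold below its range in activated HG. Sdcbp2, Apol7a, Ccl20 (a chemokine that attracts leukocytes) and Pla2g2f (a secreted phospholipase) lay at the floor in activated HG, against 7.62 or more on every quiescent array, so they were at least 9.47-fold below. The others were the calcium pump gene Atp2b4 (11.5-fold), the bicarbonate transporter gene Slc4a8 (11.4-fold), the neurotrophic factor gene Gdnf (10.4-fold), the adhesion gene Clmp (9.69-fold) and Rhbdd3 (12.9-fold), for which 1 of 3 probe sets was below.

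**Figure D1:**
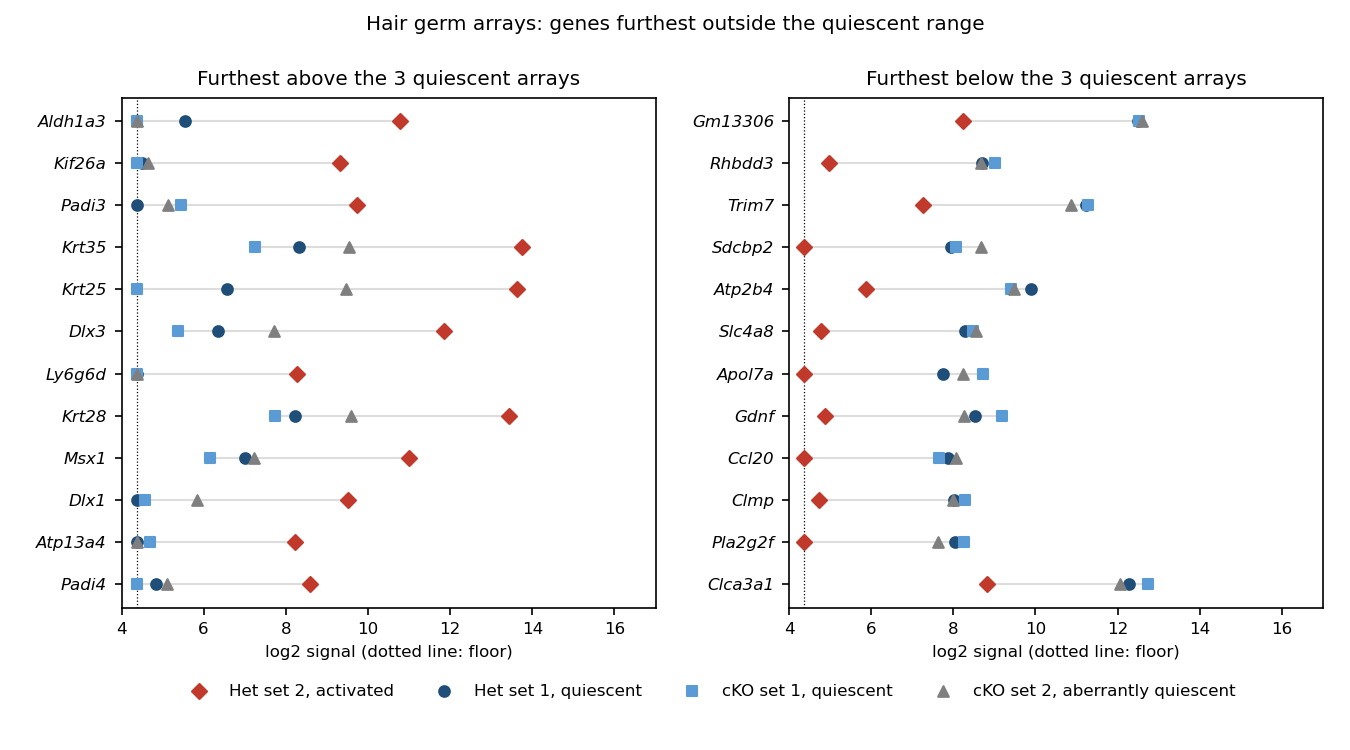
Log2 signal (x axis) of the 12 genes furthest above (left) and the 12 furthest below (right) the quiescent range on the activated (red diamonds) and the 3 quiescent hair germ arrays, with the floor as a dotted line. Every red diamond lies outside the quiescent points, and for Aldh1a3 it lies 37.5-fold above the nearest one.

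Genes of mitosis were higher throughout the list in the activated germ. Of 39 measured members of the list all lay higher in activated HG than on each of the 3 quiescent arrays, 33 of them at least 2-fold above, and 30 rose in the limma fit. The share above was 84.6%, against 5.03% over all genes. That 5.03% belongs to the 2-fold rule. How many of all genes lay higher than each of the 3 arrays was not counted, for this list or those below. Members of this and the other lists were chosen with earlier results of these data known, so their shares are descriptive. The list's median difference was 1.79, against -0.10 over all genes, and within set 2 alone 35 members were at least 2-fold higher and none 2-fold lower. Averaged over the list, the log2 level was 11.31 in activated HG, against 9.61 in Het quiescent, 9.20 in cKO quiescent and 9.59 in cKO aberrantly quiescent HG. The quiescent arrays thus carried mitotic transcripts too, at a lower level.

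Among these genes, Nek2, a centrosome kinase, had 10.88 in activated HG, against 8.43, 7.92 and 7.39, which put it 5.46-fold above (adjusted p = 0.0421). Ube2c, the ubiquitin-conjugating enzyme that helps end mitosis, had 13.07 in activated HG, against 10.68, 9.38 and 10.52 (5.24-fold above, adjusted p = 0.0051). Both exceeded the quiescent range by more than any other member. Cdk1, the kinase that starts mitosis, had 12.52 in activated HG, against 10.97, 10.19 and 11.01, and its cyclin partner Ccnb2 had 12.03 against 9.98, 8.86 and 9.82. Cdc20, an activator of the anaphase-promoting complex, had 13.24 in activated HG, against 11.42, 10.60 and 11.29. Each of the 3 genes rose, by 1.79 (adjusted p = 0.0087), 2.48 (adjusted p = 0.0053) and 2.14 (adjusted p = 0.0025). The mitotic kinase genes Plk1 (4.28-fold above), Aurkb (4.17-fold) and Bub1 (2.95-fold), the spindle assembly gene Tpx2 (4.62-fold) and the centromeric histone gene Cenpa (4.23-fold) rose as well. The 6 members within 2-fold of the range were Mki67, Kif4, Prc1, Ndc80, Nuf2 and Anln, with differences between 0.46 and 1.44.

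DNA replication genes were higher by a smaller amount. The share above was 37.5% for this list, 10% for ribosome biogenesis and 14.3% for G1 cyclins and growth regulators, against 5.03% over all genes. These shares follow the 2-fold rule, and the counts of members higher than all 3 quiescent arrays have no such share beside them. Of 40 measured members 39 were higher in activated HG than on all 3 quiescent arrays, 15 at least 2-fold above and none below, with a median difference of 0.92, and 18 rose. The ribonucleotide reductase subunit Rrm2 had 13.41 in activated HG, against 11.61, 11.65 and 11.99, and the origin licensing gene Cdc6 had 10.16 against 8.32, 8.55 and 8.53. The helicase subunits Mcm2, Mcm3, Mcm5 and Mcm10 were 2.20-fold to 2.31-fold above. Ribosome biogenesis genes were likewise higher than all 3 quiescent arrays in 19 of 20 members (median 0.83), but 2 reached 2-fold, Nolc1 (2.56-fold) and Rrp9 (2.82-fold, adjusted p = 0.12). Of 7 G1 cyclins and growth regulators, Mycn alone was above, at 12.01 in activated HG, against 9.66, 9.41 and 10.20 (1 of its 3 probe sets, adjusted p = 0.0193). Its bright probe set rose, while Cdk4 had a rise of 1.13 that stayed within 2-fold of the range (adjusted p = 0.0242). Of 12 CDK inhibitors and growth arrest genes none was above or below. Cdkn2c rose by 1.03 and Cdkn1b by 0.90, and Btg1 fell by 0.99, all within 2-fold of the quiescent range (adjusted p = 0.0216, 0.0146 and 0.0276).

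Promoters of mitosis genes are known for pairs of elements, CCAAT boxes bound by NF-Y and the cell cycle homology region TTTGAA bound by the DREAM complex and B-MYB, and the 250 bases before the start of 3 genes above are shown with those letters in capitals. Matches on the other strand read ATTGG for the first element. They read TTCAAA for the second. The sequences are RefSeq's on GRCm38.p6, all from the minus strand, at chr10:69352913-69353162 for Cdk1, chr9:70421555-70421804 for Ccnb2 and chr4:118437344-118437593 for Cdc20.
Cdk1: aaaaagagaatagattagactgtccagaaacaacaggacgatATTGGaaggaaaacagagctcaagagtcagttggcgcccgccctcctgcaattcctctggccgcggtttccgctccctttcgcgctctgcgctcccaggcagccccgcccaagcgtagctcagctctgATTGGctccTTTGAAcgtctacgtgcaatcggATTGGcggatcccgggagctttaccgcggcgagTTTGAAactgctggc
Ccnb2: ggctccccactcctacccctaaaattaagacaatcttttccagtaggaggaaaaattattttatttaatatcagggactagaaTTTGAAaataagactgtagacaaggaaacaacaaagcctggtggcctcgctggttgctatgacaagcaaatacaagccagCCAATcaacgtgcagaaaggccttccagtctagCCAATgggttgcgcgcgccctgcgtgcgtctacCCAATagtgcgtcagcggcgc
Cdc20: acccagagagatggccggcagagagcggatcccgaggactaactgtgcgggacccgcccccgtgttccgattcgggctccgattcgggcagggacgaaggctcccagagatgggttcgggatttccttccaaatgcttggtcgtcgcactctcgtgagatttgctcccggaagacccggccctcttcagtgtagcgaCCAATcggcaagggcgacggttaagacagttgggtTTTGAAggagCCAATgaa
These 3 genes were chosen because they hold both motifs. Cdk1 had 3 and 2 matches of the 2 motifs in this stretch, Ccnb2 had 3 and 1, and Cdc20 had 2 and 1. Of the 33 mitosis genes above, 27 had a promoter in the table used. CCAAT on either strand was in the 250 bases of 22 of them, against 37.5% of all 27025 genes with a promoter there. TTTGAA was in 8 of the 27 (29.6%), against 18.3% of all genes, and in 20 of the 27 when the first 50 transcribed bases were added, against 20.2%. Among 16 hair genes above, described next, CCAAT was in 10 and TTTGAA in 5 (31.25%), with or without the added bases. In the 250 bases alone TTTGAA was thus not particular to mitosis genes. These matches describe letters and are not binding sites.

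Genes of the hair matrix, shaft and inner root sheath had the largest differences of any list. The share above was 80.8%, against 5.03% over all genes. This share is descriptive, since the list's members were chosen with earlier results of these data known. Of 26 members that passed the filter, 21 were above, none was below and 25 were higher than all 3 quiescent arrays, with a median difference of 4.004, and 17 rose. Their mean log2 signal was 10.82 in activated HG, against 7.19 in Het quiescent, 6.85 in cKO quiescent and 8.39 in cKO aberrantly quiescent HG. The cKO array of set 2 was thus the highest of the quiescent ones, and within set 2 the median difference was 2.66, with 21 genes at least 2-fold higher.

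Keratins of the inner root sheath, the layer that moulds the emerging hair, were above the quiescent range. Krt25 had 13.64 in activated HG, against 6.58 in Het quiescent, the floor in cKO quiescent and 9.47 in cKO aberrantly quiescent HG. Krt28 had 13.42 in activated HG, against 8.21, 7.73 and 9.58, and Krt71, their type II partner, had 11.09 against 6.56, 5.34 and 7.94. Activated HG was 18.1-fold, 14.3-fold and 8.86-fold above the nearest quiescent array for these genes, in each case the cKO array of set 2. The quiescent arrays differed widely for Krt25, so its difference of 6.83 did not pass limma (adjusted p = 0.0653), whereas Krt28 (adjusted p = 0.0305) and Krt71 (adjusted p = 0.0283) rose. Krt27 (9.52-fold above), Krt73 (7.76-fold, adjusted p = 0.0842) and the sheath scaffold gene Tchh, which encodes trichohyalin (9.11-fold), lay in the same direction.

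Keratins and other genes of the hair shaft were above as well. Krt35, a keratin of the matrix and cuticle, had 13.75 in activated HG, against 8.33, 7.25 and 9.55 (18.4-fold above, adjusted p = 0.0133). Krt31, of the cortex, had 11.55 in activated HG, against 5.97, 6.29 and 8.81, and Krt33a had 11.73 against 5.81, 4.71 and 8.86. Both cortical keratins exceeded the nearest array, again cKO of set 2 (6.68-fold and 7.32-fold), and rose (adjusted p = 0.0104 and 0.0244). Krt33b (4.04-fold, adjusted p = 0.0564), Krt75 of the companion layer (5.59-fold), Krt81 (2.46-fold) and the cuticle gene S100a3 (10.1-fold) were above too, and Krt34 was 1.70-fold outside. These keratins form families of similar sequence, and how far their probe sets share targets was not tested. Of transcription factors of the matrix, Msx2 was 5.97-fold above (adjusted p = 0.0032), Foxn1, the gene altered in nude mice, 2.61-fold (adjusted p = 0.0707), Cux1 2.47-fold with all 9 of its probe sets (adjusted p = 0.0060), and Ovol1 2.17-fold (adjusted p = 0.0358). Hoxc13 lay 1.58-fold outside (adjusted p = 0.0664), and Gata3, an inner root sheath regulator, was lower than all 3 quiescent arrays (11.57 in activated HG, against 12.28 to 13.01, adjusted p = 0.0739).

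Many hair keratin promoters hold a TATA box, and the 250 bases before the start of 4 keratin genes above are shown with TATAAA in capitals. They come from RefSeq on the minus strand of GRCm38.p6, at chr11:99322952-99323201 for Krt25, chr11:99374904-99375153 for Krt28, chr15:101743098-101743347 for Krt71 and chr11:100050552-100050801 for Krt31.
Krt25: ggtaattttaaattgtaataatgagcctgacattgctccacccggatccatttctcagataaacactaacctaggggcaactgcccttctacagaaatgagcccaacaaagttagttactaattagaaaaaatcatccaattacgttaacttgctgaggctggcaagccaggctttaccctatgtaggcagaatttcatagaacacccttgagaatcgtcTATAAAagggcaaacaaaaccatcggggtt
Krt28: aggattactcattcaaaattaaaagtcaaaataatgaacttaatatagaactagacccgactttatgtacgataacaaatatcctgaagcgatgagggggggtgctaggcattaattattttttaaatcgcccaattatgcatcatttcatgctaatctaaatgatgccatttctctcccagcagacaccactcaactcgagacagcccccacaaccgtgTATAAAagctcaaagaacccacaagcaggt
Krt71: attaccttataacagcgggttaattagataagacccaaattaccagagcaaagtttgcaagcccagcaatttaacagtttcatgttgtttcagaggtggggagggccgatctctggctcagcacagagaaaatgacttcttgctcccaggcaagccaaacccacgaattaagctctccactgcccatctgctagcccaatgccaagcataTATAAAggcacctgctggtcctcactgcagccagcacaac
Krt31: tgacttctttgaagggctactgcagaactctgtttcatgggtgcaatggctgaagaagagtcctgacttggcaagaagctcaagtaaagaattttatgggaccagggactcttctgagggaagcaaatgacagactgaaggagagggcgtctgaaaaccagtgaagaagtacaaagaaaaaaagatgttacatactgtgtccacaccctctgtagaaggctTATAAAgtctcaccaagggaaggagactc
These 4 genes were chosen because they hold the motif. The match starts 30 bases before the transcription start in Krt25 and Krt28, 29 in Krt31 and 40 in Krt71. Of the 21 genes above, 16 had a promoter in the table, and TATAAA or its reverse TTTATA was in 8 of them, against 14.3% of all genes. CTTTGAA or TTCAAAG, the core bound by LEF1 and its relatives, was in 3 of the 16, against 5.19% of all genes, and it overlaps the motif TTTGAA. Among the 27 mitosis genes these motifs were in 1 gene each.

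**Figure D2:**
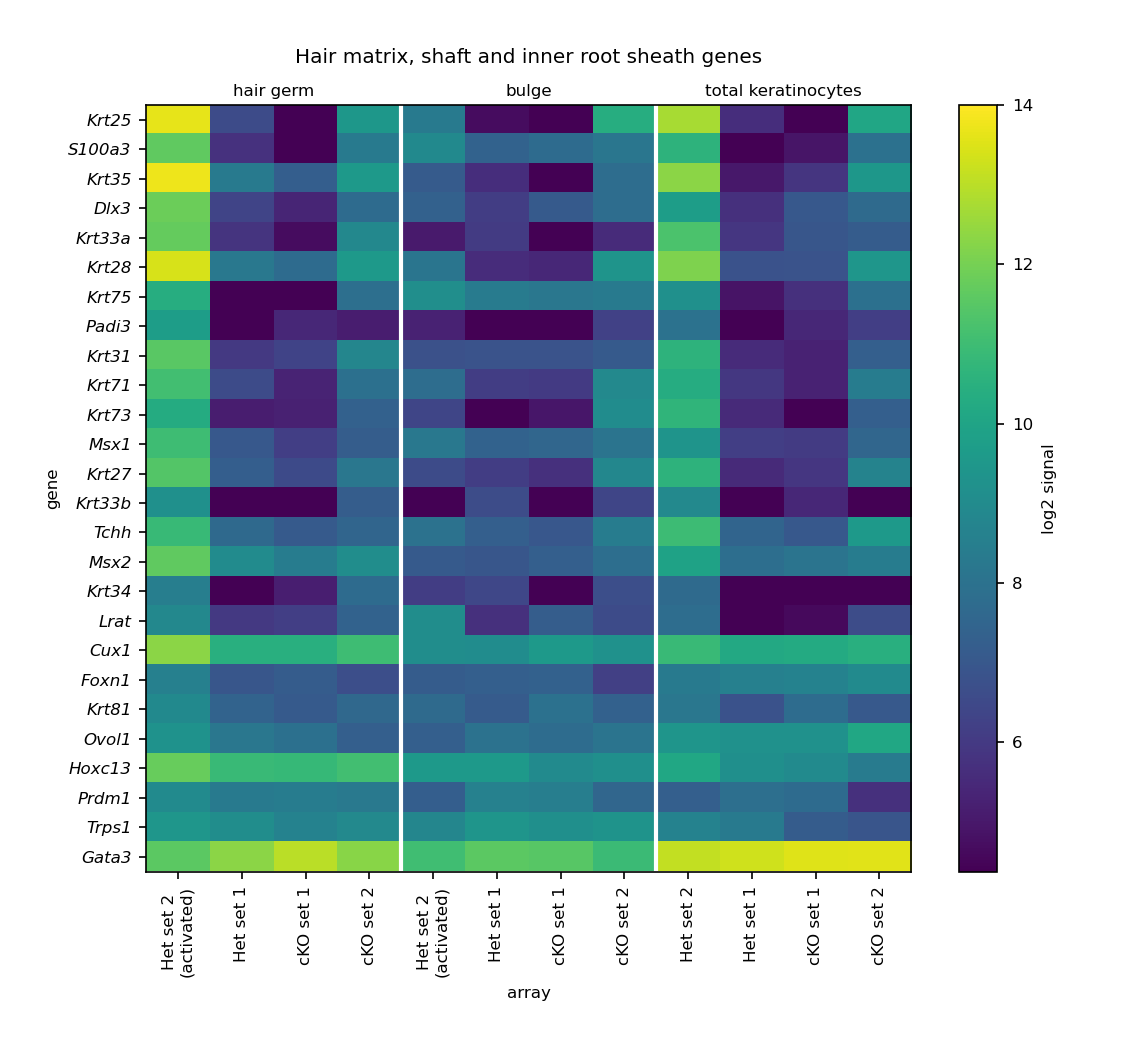
Log2 signal (colour, from the floor upwards) of the 26 hair matrix, shaft and inner root sheath genes (rows, ordered by their difference in hair germ) on the 12 arrays (columns), by fraction. The activated hair germ and the total keratinocyte array of Het set 2 are the brightest columns, and among the quiescent hair germs cKO set 2 is the brightest, with a list mean of 8.39.

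The same hair genes were high in total keratinocytes of the same genotype and set. Of the 26 genes 18 lay at least 2-fold above the other 3 total keratinocyte arrays (median 2.94), where 1.44% of all 11214 genes were above. Krt35 differed there by 5.55 and Krt25 by 6.06. In the bulge, where 0.913% of 12046 genes were above, 1 hair gene was above, Lrat (median of the list 0.31).

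Of the Hedgehog pathway list, Ptch1 rose and Cdon fell, and no other member passed the test. Of 13 genes Shh was above and 1 was below, shares of 7.69% each, against 5.03% above and 10.8% below over all genes. The gene below was Cdon, a co-receptor that binds the ligand, with 8.27 in activated HG, against 10.00, 9.97 and 9.36 (2.12-fold below, adjusted p = 0.0102). Ptch1, which encodes the receptor and is itself a target of the pathway, had 13.45 in activated HG, against 11.96, 11.95 and 12.63. Ptch1 rose by 1.27 (adjusted p = 0.0158) but lay 1.77-fold outside the range. Gli1, the transcription factor target, had 9.94 in activated HG, against 9.15 to 9.27 (adjusted p = 0.29), and the co-receptor gene Boc had 9.32 against 9.86 to 10.24 (adjusted p = 0.0701). The list's median difference was 0.38.

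Of the Wnt ligands 1 passed the test. Wnt5a, a ligand of the non-canonical branch, had 11.80 in activated HG, against 9.40, 9.28 and 9.25, and all 3 of its probe sets were above (5.27-fold, adjusted p = 0.0020). The ligands below were Wnt3a, of the canonical branch, with 6.57 in activated HG, against 8.75, 9.25 and 7.73 (2.25-fold, adjusted p = 0.0638), and Wnt16 with 4.71 against 6.35, 5.83 and 7.92 (2.17-fold, adjusted p = 0.20). Neither difference passed the test. Wnt10a, Wnt3 and Wnt7b differed by -1.24, -1.17 and -1.15, also without passing, and the 10 ligands had a median of -0.72. Shares among the ligands were 10% above and 20% below, against 5.03% and 10.8% over all genes. For the Wnt effectors, targets and inhibitors the share above was 5%, near the 5.03% over all genes. Of 20 Wnt effectors, targets and inhibitors Lef1 alone was above and none below, and the R-spondin receptor gene Lgr4 rose (1.97-fold outside, adjusted p = 0.0162) while the inhibitor-family gene Dkk3 fell by 1.34 (1.97-fold outside, adjusted p = 0.0115).

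Some known targets and feedback inhibitors of the BMP pathway were higher in activated HG. Of 21 genes 4 were above (19%, against 5.03% over all genes) and 1 below (4.76%, against 10.8%), with a median of 0.16. Msx1 and Msx2, homeobox targets of BMP, are named above. Smad6, an inhibitory Smad, had 9.62 in activated HG, against 7.49, 6.73 and 7.60 (4.07-fold, adjusted p = 0.0081), and Bambi, a decoy receptor, had 11.43 against 8.81, 7.79 and 8.998 (5.39-fold, adjusted p = 0.0054). All 4 of these genes rose. Id1, Id2 and Id3, the classic BMP targets, had 12.01, 12.05 and 12.74 in activated HG, against at most 11.60, 11.36 and 12.16 in quiescent HG. Each was higher than all 3 quiescent arrays by under 2-fold, and Id2 alone passed the test (differences of 0.83, 0.89 and 1.22, adjusted p = 0.12, 0.0222 and 0.0509). The receptor gene Bmpr1b was below, with 5.78 in activated HG, against 7.13, 7.98 and 7.67 (adjusted p = 0.11).

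Of 23 TGF-beta pathway genes 3 were above (13%, against 5.03% over all genes) and 4 below (17.4%, against 10.8%), and their median difference was 0.011. The inhibitory Smad gene Smad7 had 9.41 in activated HG, against 8.03, 8.37 and 8.02, and the matrix gene Tnc had 10.51 against 8.05, 8.34 and 8.81. Tmeff1, which encodes a membrane protein with follistatin-like domains, had 9.32 in activated HG, against 7.44, 7.27 and 6.58. Each of the 3 rose (adjusted p = 0.0398, 0.0216 and 0.0115), in each case by 1 of its 2 probe sets. Tgfbi, a secreted target, had 11.76 in activated HG, against 14.25, 14.63 and 14.22, and all 4 of its probe sets were below (5.47-fold, adjusted p = 0.00068). The co-receptor gene Tgfbr3 had 9.17 in activated HG, against 11.18, 11.74 and 11.31 (4.03-fold below, adjusted p = 0.0014). The matricellular gene Ccn1 (2.56-fold, 4 of 4 probe sets) and the latent TGF-beta binding protein gene Ltbp2 (2.27-fold) were below too, and both fell. Tgfbr2 itself fell by 1.25 and lay 1.94-fold outside the range (adjusted p = 0.0199).

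**Figure D3:**
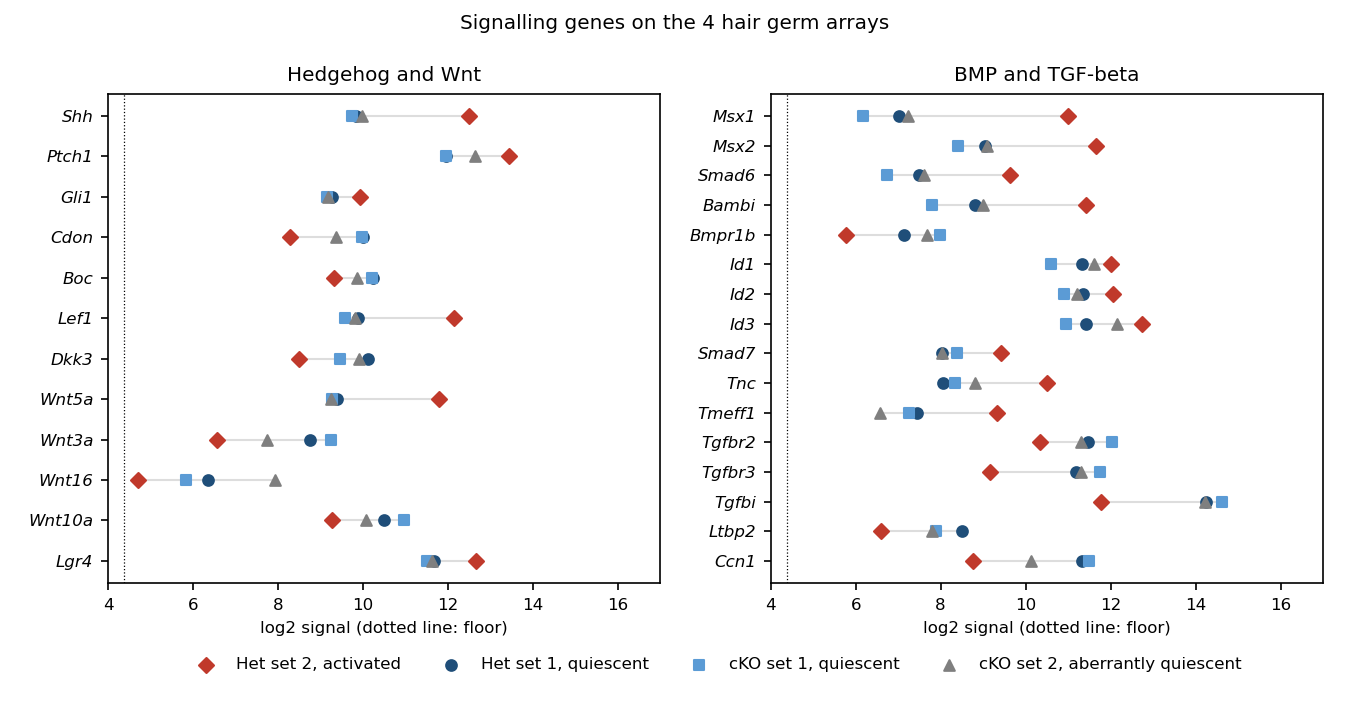
Log2 signal (x axis) of Hedgehog and Wnt genes (left) and BMP and TGF-beta genes (right) on the activated (red diamonds) and the 3 quiescent hair germ arrays. Shh, Lef1, Wnt5a, Msx1, Msx2, Smad6 and Bambi stand to the right of all quiescent points, and Tgfbi and Tgfbr3 to the left.

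Of other ligands and receptors, Fgf5, the signal that ends hair growth, had 8.67 in activated HG, against the floor in both set 1 arrays and 6.30 in cKO aberrantly quiescent HG (5.17-fold above, adjusted p = 0.0298). Tgfa, a ligand of the EGF receptor, had 8.30 in activated HG, against 9.52 to 9.78 (2.32-fold below, adjusted p = 0.0384). These were the 2 of 23 FGF, EGF and Notch genes outside the range (median -0.30). The shares above and below were 4.35% each, under the 5.03% and 10.8% over all genes.

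Bulge stem cell genes were lower in activated HG in part of the list. Of 21 genes 6 were below (28.6%, against 10.8% over all genes) and none above, and the median difference was -0.80. The list moved in both directions, since 12 genes were lower than all 3 quiescent arrays and 7 were higher than all 3. Each of those 7 lay within 2-fold of the quiescent range. Krt15, the keratin of quiescent follicle stem cells, had 14.28 in activated HG, against 15.70, 15.85 and 16.03, and Col17a1, which anchors these cells to the basement membrane, had 12.61 against 14.37, 15.00 and 14.46. Both fell, by 1.58 (adjusted p = 0.0050) and 2.00 (adjusted p = 0.0027). The transcription factor genes Nfatc1 and Foxc1, which hold stem cells at rest, had 7.17 and 7.81 in activated HG, against 8.56 to 9.33 and 9.27 to 9.72 in quiescent HG. They fell by 1.90 and 1.71 (adjusted p = 0.0078 and 0.0041), and 2 of the 4 probe sets of Nfatc1 were below. Postn (3.29-fold) and Angptl7 (2.78-fold) were the other genes below. In the hair germ list 25% were above and 16.7% below, against 5.03% and 10.8% over all genes. Of 12 hair germ genes 3 were above, Shh, Lef1 and Msx2, and 2 below, Bmpr1b and the growth factor binding protein gene Igfbp3 (2.54-fold, adjusted p = 0.0127), so this list as a whole had a median of 0.022.

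Part of the keratin and adhesion genes of basal keratinocytes were lower. Of 18 genes 7 were below (38.9%, against 10.8% over all genes) and all 7 fell, while 2 were above and 4 were higher than all 3 quiescent arrays. Krt5 and Krt14, the paired basal keratins, had 14.03 and 14.25 in activated HG, against at least 15.14 and 15.49 on every quiescent array. The dystonin gene Dst of the hemidesmosome had 12.55 in activated HG, against 15.02, 15.17 and 14.99 (5.45-fold below, adjusted p = 0.000629). The integrin gene Itga6, the laminin genes Lama3 and Lamb3, and the anchoring fibril gene Col7a1 were 2.34-fold to 2.99-fold below. Thus 6 of these 7 genes lay between 2.17-fold and 2.99-fold below, and Dst further. The gap junction genes Gjb2 and Gjb6 were the 2 of the list above, Gjb2 with 13.94 in activated HG, against 8.79, 8.37 and 10.99 (7.73-fold, adjusted p = 0.0406) and Gjb6 3.35-fold above (adjusted p = 0.0151).

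Genes of epidermal differentiation and of the upper follicle were lower too. Of 21 epidermal genes 8 were below (38.1%, against 10.8% over all genes) and none above (median -1.25). The suprabasal keratins Krt1, Krt10 and Krt77 had 9.66, 13.11 and 11.58 in activated HG, against at least 11.79, 14.59 and 13.59 in quiescent HG, and Krtdap had 11.97 against 14.89, 14.27 and 14.15. All 4 fell, with adjusted p between 0.0038 and 0.0185. Klf4 (2.25-fold), Cdsn (2.89-fold) and Sprr1a (2.26-fold) fell as well, while Krt2 was at least 4.16-fold below without passing (adjusted p = 0.0621). Within set 2 the list's median was -0.67 with 8 genes at least 2-fold lower, since the cKO aberrantly quiescent array was the lowest of the 3 (list mean 9.70, against 10.58 in Het quiescent and 10.45 in cKO quiescent HG) and 9.04 was the mean in activated HG. Of 9 infundibulum and isthmus genes Gata6, Defb6, Cst6 and Krt80 were below by 3.77-fold to 4.75-fold, and all 4 fell (median of the list -1.76). The share below in that list was 44.4%, against 10.8% over all genes. Sebaceous genes had 1 above, Mgst1 (2.03-fold), and 1 below, Scd3 (2.53-fold), among 8. These are 12.5% each, against 5.03% above and 10.8% below over all genes.

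Markers of other cell types were also measured beside these groups, and immune cell genes moved most. Of 14 immune genes 11 were below, none was above, and 10 fell, with a median difference of -2.03. The share below was 78.6%, against 10.8% over all genes. The mean log2 signal of the list was 7.44 in activated HG, against 9.56, 9.32 and 9.58 on the 3 quiescent arrays. The pan-leukocyte gene Ptprc had 7.33 in activated HG, against 9.54, 9.90 and 9.95, and the T cell receptor subunit gene Cd3g had 7.42 against 9.76, 9.68 and 10.00. Cd207, a marker of Langerhans cells, had 6.17 in activated HG, against 8.05, 7.59 and 8.54, and the class II gene H2-Aa had 10.60 against 12.38, 12.80 and 12.78. Immune transcripts were thus higher on all 3 quiescent arrays, and their part in the genes below the range was not tested. H2-Ea was at the floor in activated and in cKO quiescent HG, so it overlapped.

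Other marker lists shifted less. Of 10 melanocyte genes Pmel alone was below, a share near the 10.8% over all genes (2.06-fold, adjusted p = 0.0227, median of the list -0.69, mean 9.30 in activated HG, against 9.78 to 9.94 in quiescent HG). Of 10 fibroblast genes Col1a2 (2.24-fold) and Lum (2.27-fold) were below (20%, against 10.8% over all genes). Dcn, a collagen-binding proteoglycan, was the gene above (10%, against 5.03% over all genes). It had 14.56 in activated HG, against 12.48, 12.81 and 12.61 (1 of 2 probe sets, list median -0.85). The dermal papilla gene Rspo3, a Wnt enhancer, was below (3.26-fold, adjusted p = 0.0446) and was 1 of 4 papilla genes that passed the filter. Of 11 endothelial, muscle, erythroid and Schwann cell markers measured, 4 passed the filter and Pmp22 was below (2.36-fold). For this list and the papilla list the share below was 25%, against 10.8% over all genes. The erythroid genes Hba-a1 and Alas2 were at the floor on all 4 HG arrays.

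Glucose uptake and early glycolysis genes were lower at some steps. The share below the quiescent range was 33.3%, against 10.8% over all genes. For the retinoid genes, given last, 33.3% were above and 11.1% below, against 5.03% and 10.8%. Of 12 genes 4 were below and all 4 fell. The glucose transporter gene Slc2a1 had 10.75 in activated HG, against 12.27, 12.59 and 12.75, and the phosphofructokinase gene Pfkp had 9.75 against 11.60, 11.63 and 11.57. Both were below in every one of their tested probe sets (adjusted p = 0.0020 and 0.00076). Hk1 (2.22-fold) and Aldoa (2.26-fold) were the others, whereas Pgam1 rose by 0.93 within 2-fold of the range (adjusted p = 0.0129), so the list's median was -0.26. Of 9 retinoid genes Aldh1a3, Lrat (2.75-fold, adjusted p = 0.0471) and the retinol transporter gene Stra6 (2.03-fold, adjusted p = 0.13) were above, and the retinoic acid binding protein gene Crabp2 was below (2.14-fold, adjusted p = 0.0868).

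Immediate early genes, which also respond to cell dissociation, were lower in HG in part of the list and higher in bulge in most of it. In HG the share below was 35.7%, against 10.8% over all genes, and the list's median within set 2 was -0.23. Egr3, an early response gene outside this list, was higher in activated HG and is given under the other observations. In HG 5 of 14 were below and all 5 fell. Dusp1, a MAP kinase phosphatase, had 10.69 in activated HG, against 13.92, 13.76 and 13.61 (7.54-fold below), and Fosb, a subunit of AP-1, had 6.42 against 10.63, 9.27 and 8.68 (4.79-fold). Fos, Atf3 and Zfp36 were 2.57-fold, 3.61-fold and 2.78-fold below. In activated bulge 10 of the same 14 genes were above the quiescent bulge arrays, where 0.913% of all genes were above (list median 1.65, against -0.40 in HG). Dusp1 had 15.00 in activated bulge, against 13.67, 13.87 and 13.53 in quiescent bulge, and the difference between fractions passed limma for 9 genes of the list. In total keratinocytes the list's median was -0.99.

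**Figure D4:**
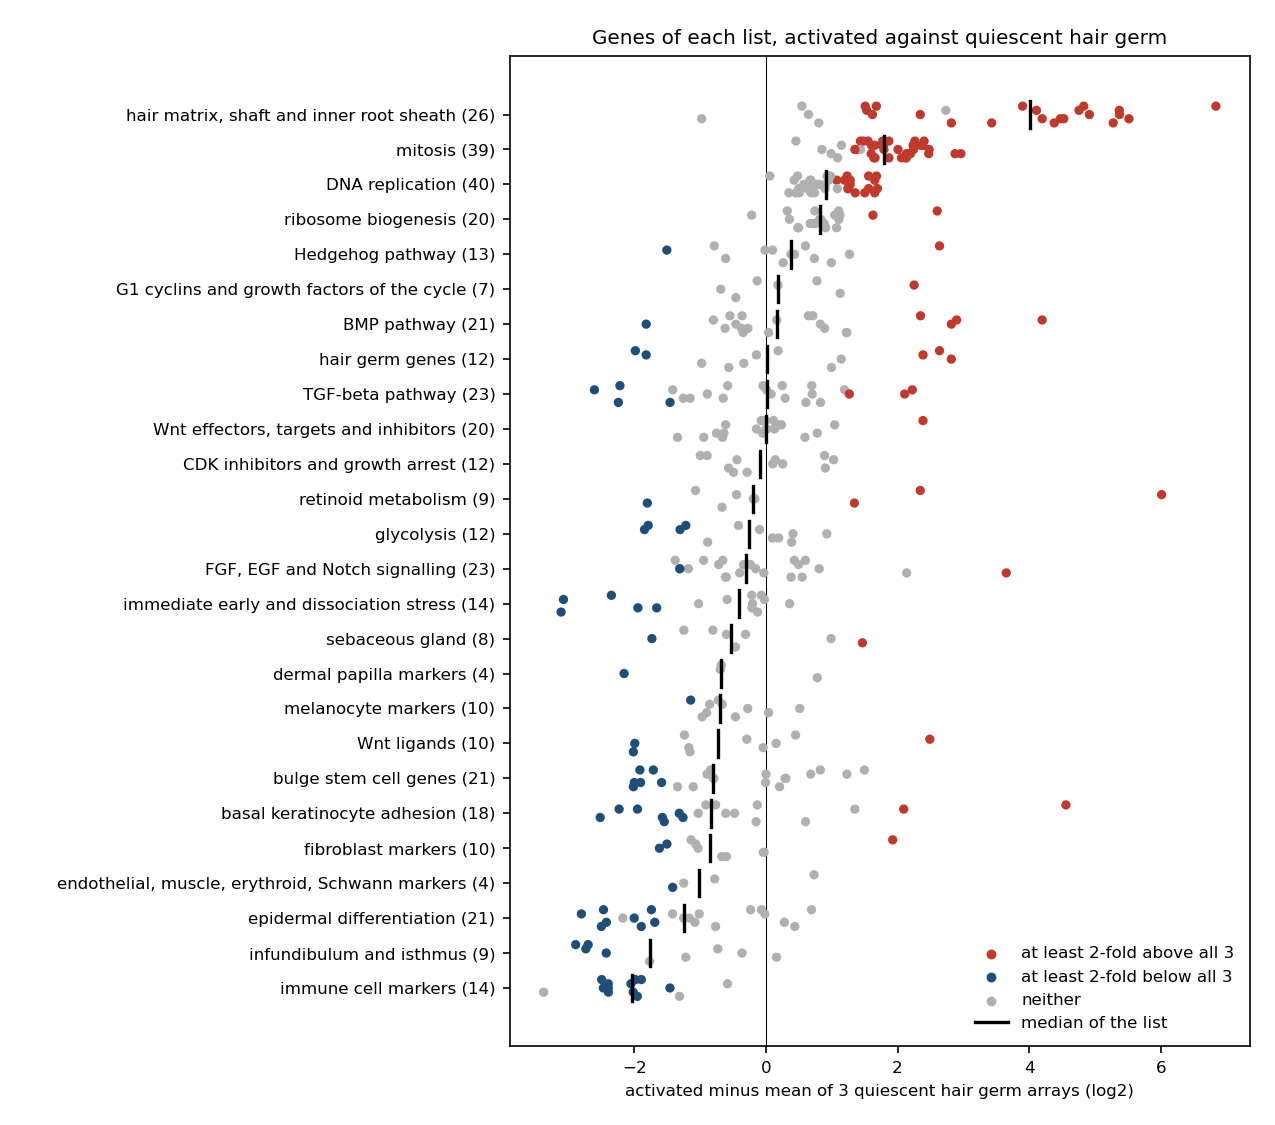
Difference between activated and mean quiescent hair germ (log2, x axis) of each gene that passed the filter (points), by list with the number of genes in brackets, coloured by whether the gene lay at least 2-fold above or below all 3 quiescent arrays, with the median as a black bar. Hair genes (median 4.004) and mitosis genes (1.79) lie to the right, and immune genes (-2.03) to the left.

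The activated bulge array, from the same genotype and set, differed from its own quiescent arrays in fewer genes. Of 12046 genes tested there 110 were above (0.913%) and 416 below (3.45%). By limma 7 genes rose (0.0511%) and 47 fell (0.343%) in activated bulge, 54 in all (0.394%), and neither the number nor the direction was stable. With no filter 81 rose and 19 fell, and with the floor at the pooled median 68 rose and 29 fell. Quantile normalization left 9 that fell, the fit without the trend left 1 in each direction, and leaving out the Het quiescent array of HG left 25 in all. Genes above in both fractions numbered 16, which is 2.74% of the HG list and 14.5% of the bulge list, and 7 genes above in HG were below in bulge. Genes below in both numbered 138, which is 11% of the HG list and 33.2% of the bulge list. The genes above in HG had a median difference of 0.32 in bulge, and those below one of -0.36, where the median over all genes was 0.015. The limma test of the difference between fractions called 308 of 13698 genes (2.25%), 105 with a higher (0.767%) and 203 with a lower (1.48%) difference in HG, and among them were 74 of the genes above and 174 of those below. This count depended on single choices. It was 42 without the Het quiescent HG array, 146 without the cKO quiescent one, 160 without the cKO aberrantly quiescent one and 61 with all probe sets of a gene averaged. Without the moderation trend limma called 0, although 2176 genes had an unadjusted p under 0.05.

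The differences of Lef1 and Wnt5a exceeded those in bulge by this test. Lef1 had 7.33 in activated bulge, against 8.16, 8.27 and 7.83 in quiescent bulge, and the HG difference exceeded that of bulge by 3.15 (adjusted p = 0.0176). Wnt5a had 7.69 in activated bulge, against 7.92, 8.60 and 7.94 (HG minus bulge 2.95, adjusted p = 0.0191). Neither gene was higher in activated bulge than in any quiescent bulge array. Shh had 4.71 in activated bulge, against 5.37, 6.76 and 8.41 in quiescent bulge, where the test gave 4.77 (adjusted p = 0.0763). Of the 38 mitosis genes tested in bulge 4 were above (Aurkb, Cdc20, Cenpa and Racgap1), where 0.913% of all genes were above. The list's median difference in bulge was 0.77, and none of its genes passed the test between fractions.

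**Figure D5:**
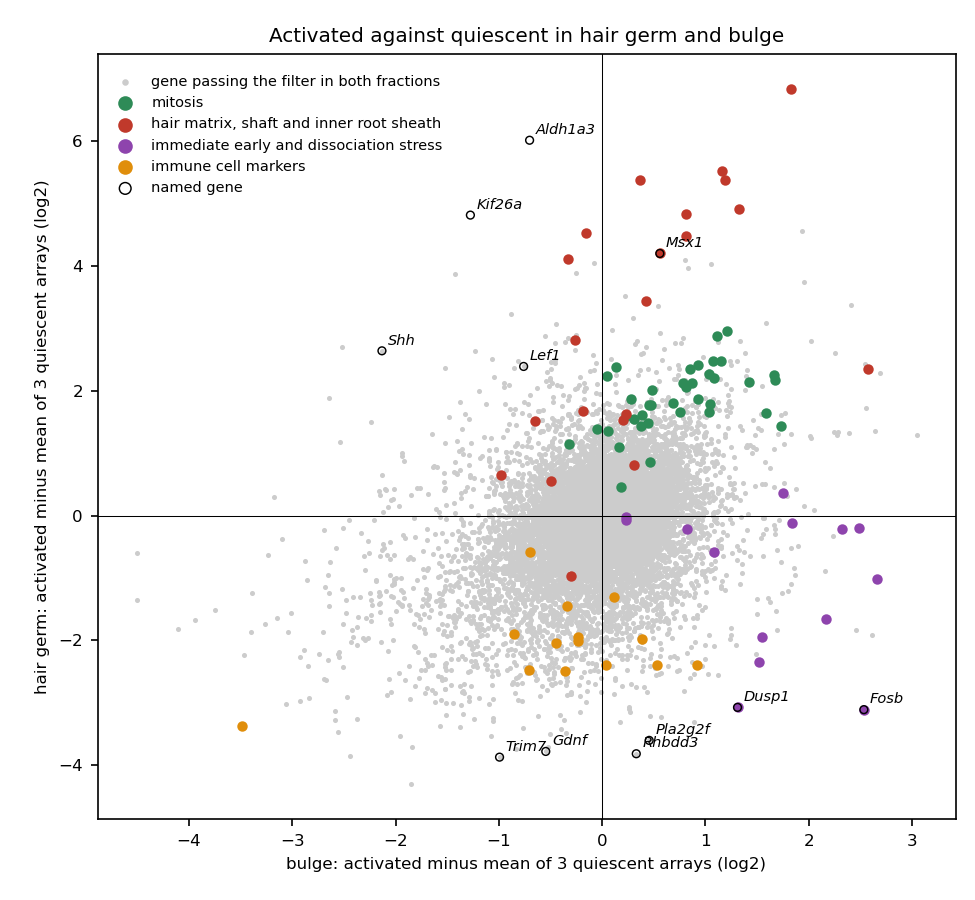
Difference between activated and mean quiescent arrays (log2) in hair germ (y axis) against bulge (x axis) for genes that passed the filter in both fractions (grey), with 4 lists coloured. Named genes are circled whether or not they passed the filter in bulge, which Aldh1a3 did not. Hair and mitosis genes lie high on the hair germ axis, and immediate early genes lie right of 0 in bulge, where their median was 1.65.

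In total keratinocytes of Het set 2, which the labels give no state, 161 of 11214 genes were above the other 3 arrays (1.44%) and 87 below (0.776%). Of the genes above in HG 129 were above there as well, which is 22.1% of the HG list and 80.1% of the total keratinocyte list, and 32 were below in both (2.55% of the HG list and 36.8% of the other). No gene lay on opposite sides. Shh had 10.85 in total keratinocytes of Het set 2, against 6.45, 7.95 and 7.96 on the others, and 22 of 39 mitosis genes were above there. Genes above in all 3 fractions of Het set 2 numbered 6, and those below in all 3 numbered 9.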

How the data were processed

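Female mouse back skin cells were profiled on 12 Affymetrix arrays. The authors deposited MAS5 signal intensities on a linear scale, per the submitters' processing notes, and the values show each array scaled to a mean of 500 after trimming 2% at each end. From them, 45101 probe sets less 64 controls were reduced to 18193 genes by keeping the probe set of highest mean among those with 1 symbol (34945, with 932 of several symbols and 9160 of none left out). Floor, filter and the 2-fold rule are given above. limma 3.58.1 (R 4.3.3, eBayes with trend, two-sided, Benjamini-Hochberg) was fitted to 8 arrays in 4 cells, HG or bulge by activated or quiescent. The fit was also run on simulated data, in which activated arrays were drawn with the spread of the quiescent ones. That run thus cannot check whether real activated arrays vary in the same way. The number of arrays limits the precision. Named genes were the 12 furthest above and below, the markers, Tgfbr2, Cdh3, Cd34, Tmeff1 and Id1 to Id3, list members outside the range and up to 4 others per list. Members, lists and tests were chosen with earlier results of these data known. Alternatives were other scalings, floors, filters, probe set rules and fits, and each quiescent HG array left out.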

Additional observations from a re-analysis of the deposited data

Results flagged for a closer look

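The limma test of the difference between fractions (HG minus bulge, each activated minus quiescent, adjusted p under 0.05) called 308 genes. Among the 12 genes furthest above the quiescent range in HG it called Aldh1a3 (6.71 on the log2 scale, adjusted p = 0.0432), Kif26a (6.09, adjusted p = 0.0427) and Msx1 (3.64, adjusted p = 0.0371). Among the 12 furthest below it called Rhbdd3 (-4.15, adjusted p = 0.0111), Trim7 (-2.88, adjusted p = 0.0191), Gdnf (-3.23, adjusted p = 0.0493) and Pla2g2f (-4.06, adjusted p = 0.0191). Of the 3 genes given as marks of the activated germ, Lef1 was called (3.15, adjusted p = 0.0176). Aldh1a3 did not pass the signal filter in bulge, where its difference was -0.70, so its value of 6.71 includes a bulge fall among dim signals. Rhbdd3 was not below the range in all of its probe sets, as given above. No explanation was tested.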

How the results depend on the processing

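Of 583 genes above and 1257 below the quiescent range, a 4-fold distance left 120 and 245. Quantile normalization gave 776 below and a filter at the 75th percentile 631. Leaving out 1 quiescent HG array gave 674 to 759 above and 1399 to 1577 below. Within set 2 alone, an alternative chosen after seeing the data, 1000 were higher and 1767 lower. The 2173 limma calls in HG became 891 with no filter, 1100 without the trend and 1214 to 1930 with 1 quiescent HG array left out. The 308 calls between fractions became 97 with quantile normalization, 162 with no filter, 468 with the filter at the 75th percentile, 61 with all probe sets averaged, 0 without the trend (2176 at an unadjusted p under 0.05), and 42, 146 and 160 without the Het quiescent, cKO quiescent and cKO aberrantly quiescent HG array. With the set number as a replicate block there were 1778 calls in HG and 602 between fractions. Deviations of quiescent HG and bulge arrays of the same genotype and set from their fraction's mean correlated at 0.017 (Het set 1), 0.087 (cKO set 1) and 0.17 (cKO set 2) over 13698 genes. Pairs of the same set but different genotype correlated at 0.019 and 0.062, and pairs of different sets at -0.15 to -0.035. Deviations within a fraction cancel for each gene, so higher values for some pairs force lower ones for others. The samples were taken to share only a set number, which these values do not settle. The cause of these shifts was not tested. Of 2123 values recomputed for 193 named genes under 11 settings, 246 moved and 0 reversed. Only genes at least 2-fold outside the range could count as reversed, and leaving out a quiescent array cannot change their sign. The 0 is thus no evidence of stability. Precision is limited by 1 activated array, whose own spread is unknown.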

Other observations

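The following genes were chosen after their values were seen. Klrd1, a receptor gene of natural killer cells, had 5.95 in activated HG, against 8.55, 8.79 and 8.62 in quiescent HG (limma adjusted p = 0.0027), and Ctsw, a cathepsin gene, had 5.05 against 8.35, 8.25 and 8.24 (adjusted p = 0.0218). The nuclear receptor gene Rora had 8.67 in activated HG, against 11.46, 12.02 and 11.39, in the same direction in all 6 of its probe sets (adjusted p = 0.00068). Il1r2, a decoy receptor for interleukin 1, had 9.82 in activated HG, against 12.90, 13.22 and 13.10 (adjusted p = 0.000779).

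The hair shaft genes Krtap8-1 and Krtap7-1 had 13.55 and 11.38 in activated HG, against at most 10.46 and 7.90 in quiescent HG, highest in the cKO array of set 2 (adjusted p = 0.0389 and 0.0132). The homeobox gene Hoxd8 had 11.51 in activated HG, against 9.04, 9.05 and 9.07, by 1 of its 2 probe sets (adjusted p = 0.000629). Egr3, an early response transcription factor, had 12.67 in activated HG, against 9.10, 9.42 and 9.80, by 1 of its 2 probe sets (adjusted p = 0.000629).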
